A study of Mus musculus with 24 samples.

Results

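The coat protein complex II (COPII) and its procollagen partner at endoplasmic reticulum (ER) exit sites were followed through 10 genes in cultured mouse osteoblasts (OBs). The members were *Mia3*, *Sec13*, *Sec23a*, *Sec23b*, *Sec24a*, *Sec24c*, *Sec24d*, *Sec31a*, *Sar1a* and *Sar1b*, chosen by symbol, and each had 1 entry among the 55335 genes counted in every library. The cells were taken from the parietal bones of pups on the C57BL/6J background that were either wild type (WT) or heterozygous (Het) for G610C, a mouse model of osteogenesis imperfecta. Het animals carry 1 *Col1a2* allele with a glycine to cysteine change in the triple helix of the procollagen α2(I) chain, and they keep a normal allele that the counts do not separate from it. All cultures received osteogenic differentiation treatment, and polyadenylated RNA was sequenced at days 8, 14 and 21 with 4 libraries of each genotype per day and 24 in all.

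Cells from several pups of a genotype were pooled before plating, so a library is a culture well and not an animal, wells of an experiment share a cell pool, and the p-values below measure the spread between libraries, which may be technical. Not all cultures were grown together, since the study describes experiments with different litters, seeding densities and oxygen levels, and the labels do not say which replicate belongs to which. The labels give more replicates per genotype and day than the wells that the methods describe, and the origin of the added ones is not given in the sources used here. Collagen-producing cells were not purified from the other cells of the preparation. In such bulk RNA, fewer cells of a type and less RNA per cell cannot be told apart.

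COPII vesicles carry newly folded proteins out of the ER. The small GTPase SAR1 starts the coat at the exit site, SEC23 and SEC24 form its inner layer, in which SEC24 binds cargo, and SEC13 and SEC31 form the outer cage. Procollagen is too long for an ordinary vesicle, and the exit-site protein TANGO1, which *Mia3* encodes, links it to the coat. In people, loss of SEC23A or SEC24D function is known to disturb skull and bone formation, so the choice among paralogs is of interest in bone cells.

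The stretches before the RefSeq start sites of *Sec24d* and *Sec24c*, whose changes between days 8 and 14 differed most among the members, and of the paralogs *Sec23a* and *Sec23b* are shown in build GRCm38.p6, 5′ to 3′ on the coding strand. Capitals mark TGACGT, the core bound by basic leucine zipper factors of the ER stress response, its extension TGACGTGG (the unfolded protein response element), and CCAAT, each on either strand. The *Sec24d* stretch was ended 25 bases inside the first exon that GENCODE M21 annotates there.
Sec24d (chr3:123267296-123267479, + strand): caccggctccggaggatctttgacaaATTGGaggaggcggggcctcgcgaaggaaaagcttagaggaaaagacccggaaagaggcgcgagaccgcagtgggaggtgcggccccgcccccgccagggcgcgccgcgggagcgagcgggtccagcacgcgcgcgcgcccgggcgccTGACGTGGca
Sec24c (chr14:20674121-20674320, + strand): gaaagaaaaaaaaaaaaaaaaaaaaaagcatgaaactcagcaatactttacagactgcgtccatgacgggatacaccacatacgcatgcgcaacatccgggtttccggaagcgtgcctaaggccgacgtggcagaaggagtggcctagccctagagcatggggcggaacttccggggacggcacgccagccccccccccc
Sec23a (chr12:59012018-59012217, - strand): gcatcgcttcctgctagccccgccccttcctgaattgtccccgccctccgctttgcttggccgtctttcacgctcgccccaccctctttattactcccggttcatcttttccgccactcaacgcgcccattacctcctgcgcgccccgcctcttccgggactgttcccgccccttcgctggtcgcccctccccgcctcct
Sec23b (chr2:144556029-144556228, + strand): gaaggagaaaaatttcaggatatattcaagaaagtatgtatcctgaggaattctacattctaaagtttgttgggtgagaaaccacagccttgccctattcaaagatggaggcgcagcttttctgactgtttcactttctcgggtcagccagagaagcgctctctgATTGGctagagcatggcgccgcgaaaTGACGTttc

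Motif letters were searched on both strands in the 200 bases before each of 32843 mouse RefSeq start sites. The members had 12 such start sites, a pair each for *Sec23b* and *Sec31a*. TGACGT was found before 5 of the 12 (*Mia3*, *Sar1a*, *Sec24a*, *Sec24d* and the first of *Sec23b*) and before 5.86% of all start sites. The longer TGACGTGG, which contains that core, stood before *Sec24d* alone among the members and before 0.524% of all start sites. In *Sec24d* it lay at chr3:123267470-123267477, 26 bases before the RefSeq start and 15 bases after the earlier GENCODE start. TGACGTCA, the cyclic AMP response element that also holds the core, was before none of the members and before 1.47% of all start sites. CCAAT was before 4 of the 12 and 29.4% of all start sites, and GGGCGG was before 8 of the 12 and 31.1% of all start sites. The ER stress element, CCAAT and CCACG separated by 9 bases, was before none of the members and before 0.104% of all start sites. The window of *Sec24a* and the second ones of *Sec23b* and *Sec31a* lie inside the genes as GENCODE M21 annotates them, with RefSeq starts 6800, 8670 and 6211 bases after the GENCODE starts. The TGACGT and GGGCGG counted for *Sec24a*, and the GGGCGG counted for *Sec31a*, are in these internal windows. *Sec24a* and *Sar1b* lie head to head on chromosome 11, at chr11:51692264-51763634 on the minus strand and chr11:51763687-51791925 on the plus strand.

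Libraries held 17140202 to 59734231 counts, and the members held 517 counts (*Sec24a*) to 29335 counts (*Sec31a*) in single libraries. Replicate 1 was the shallowest set, with a median total of 23926750 against 51462304 for replicates 2 to 4. In some groups it stood apart from the other replicates, as described below. Levels are given as relative quantity (RQ), each count relative to the library's own housekeeping level (the geometric mean of *Sdha*, *Mrfap1*, *Actb* and *Actg1*). Fold changes are log2 values from edgeR's quasi-likelihood test on the same scale, called at a Benjamini-Hochberg adjusted p under 0.05 over all genes tested. The scale mattered for the time course: the median log2 change of all genes from day 8 to day 14 was 0.13 with the housekeeping scale, −0.02 with TMM, 0.01 with DESeq2's size factors and −0.15 with the total count.

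Markers of other cell types were present and moved with genotype and day. The 7 OB markers (such as *Col1a1*, *Runx2* and *Bglap*) had a summed RQ of 169 to 186 in WT and 114 to 150 in Het at day 21. The genotypes overlapped at day 14 (101 to 182 in WT, 95.7 to 127 in Het) and at day 8 (17.4 to 48.1 and 18.4 to 38.0). The 10 macrophage and osteoclast markers summed to 5.28 to 6.28 in WT and 6.95 to 16.1 in Het at day 21, and to 1.25 to 3.96 in WT and 2.66 to 6.50 in Het at day 14. At day 8 they overlapped, at 0.247 to 0.492 in WT and 0.418 to 0.953 in Het. Not all 10 went with the sum: at each day 8 had log2 fold changes above 0 in Het and 2 below 0, the lowest −0.795 at day 21. The 4 cartilage markers overlapped at each day. They summed to 20.3 to 34.3 in WT and 5.42 to 33.2 in Het at day 8, and to 3.42 to 7.96 and 1.12 to 7.92 at day 21. All markers of these 3 lists were detected at every day in both genotypes. Endothelial, skeletal muscle, adipocyte and fibroblast markers summed to at most 0.0256 in any library, and *Myod1* had no count in 5 of the 6 groups, *Emcn*, *Myog* and *Ckm* in 1 each, and the 3 smooth muscle markers summed to 3.67 to 7.53. The part of these cells in the member values below was not tested.

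Levels were compared between members per kilobase of merged exon. *Sar1a* was the most abundant member, with a mean RQ per kb of 0.159 ± 0.00841 at day 8, 0.206 ± 0.0121 at day 14 and 0.208 ± 0.0220 at day 21 (SD, n = 8). *Sec13* and *Sec31a*, the outer cage, followed at 0.138 ± 0.0137 and 0.129 ± 0.0101 at day 14, then *Sec23a* at 0.113 ± 0.0118 and *Sec24d* at 0.0932 ± 0.00984. *Sar1b*, *Mia3*, *Sec24c*, *Sec23b* and *Sec24a* completed the order, from 0.0628 ± 0.00711 for *Sar1b* to 0.00708 ± 0.00104 for *Sec24a*. Each neighbouring pair stood in this order in 24 of 24 libraries except *Sec13* above *Sec31a*, which held in 21, and the day 14 means of that pair differed by less than the SD of either. One paralog therefore led each family in these OBs: *Sar1a* over *Sar1b*, *Sec23a* over *Sec23b*, and *Sec24d* over *Sec24c* and *Sec24a*.

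From day 8 to day 14 most coat transcripts rose relative to the housekeeping genes. Of the 10 members, 8 were higher at day 14 over both genotypes and none was lower, where 34.2% of the 20434 genes tested were called higher and 13.4% lower. The median log2 change of the members was 0.31, beside 0.13 for all genes. All libraries of day 14 were above all libraries of day 8 for 2 members, *Sec24d* and *Sar1a*, beside 12.5% of all genes. With TMM or DESeq2's size factors 7 members were called higher and *Sec24c* lower, and with the total count 2 higher and *Sec24c* lower. In the same comparison 7 of the 7 OB markers (median 2.30) and 9 of the 10 macrophage and osteoclast markers (median 3.09) were called higher, and their part in the member values was not tested. Over all genes, 6995 were called higher and 2741 lower on the housekeeping scale, against 4824 and 5446 with TMM, 5235 and 4944 with DESeq2's size factors, and 3571 and 7992 with the total count. Within WT alone 6 members were called higher, beside 23.4% of all genes, and within Het alone 6, beside 26.4%.

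*Sec24d*, the SEC24 paralog whose loss in people causes a form of osteogenesis imperfecta, rose most. Its RQ in WT was 0.440, 0.447, 0.434 and 0.423 at day 8, 0.603, 0.665, 0.646 and 0.630 at day 14, and 0.618, 0.605, 0.616 and 0.582 at day 21 (replicates 1 to 4). In Het it was 0.433, 0.360, 0.345 and 0.379 at day 8, 0.487, 0.606, 0.551 and 0.526 at day 14, and 0.587, 0.507, 0.520 and 0.482 at day 21. Every day 14 library was above every day 8 library, and no day 21 library was above the highest day 14 library of its genotype. The log2 change from day 8 to day 14 was 0.53 ± 0.05 (SE, adjusted p = 4.82e-08, with 8 of 8 same-numbered pairs higher because these days did not overlap). It was called under each scale tried, at 0.39 with TMM, 0.41 with DESeq2's size factors and 0.26 with the total count. Within WT alone it gave 0.55 and within Het alone 0.52, the largest values among the members in both genotypes.

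*Sec24c*, a broadly expressed SEC24 paralog, did not rise with it. Its RQ in WT was 0.284, 0.237, 0.225 and 0.242 at day 8 and 0.263, 0.230, 0.213 and 0.232 at day 14. In Het it was 0.288, 0.195, 0.203 and 0.226 at day 8 and 0.262, 0.210, 0.191 and 0.189 at day 14. Replicate 1 was the highest library in each of these 4 groups, and the groups overlapped widely. The log2 change was −0.09 ± 0.08 (adjusted p = 0.416, 95% interval −0.25 to 0.07) on the housekeeping scale. It was called lower under the other 3 scales, at −0.23 with TMM, −0.20 with DESeq2's size factors and −0.36 with the total count. The third paralog, *Sec24a*, gave 0.21 ± 0.09 (adjusted p = 0.0574), and with the replicate number as a block 0.23 (adjusted p = 0.0446).

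**Figure D1:**
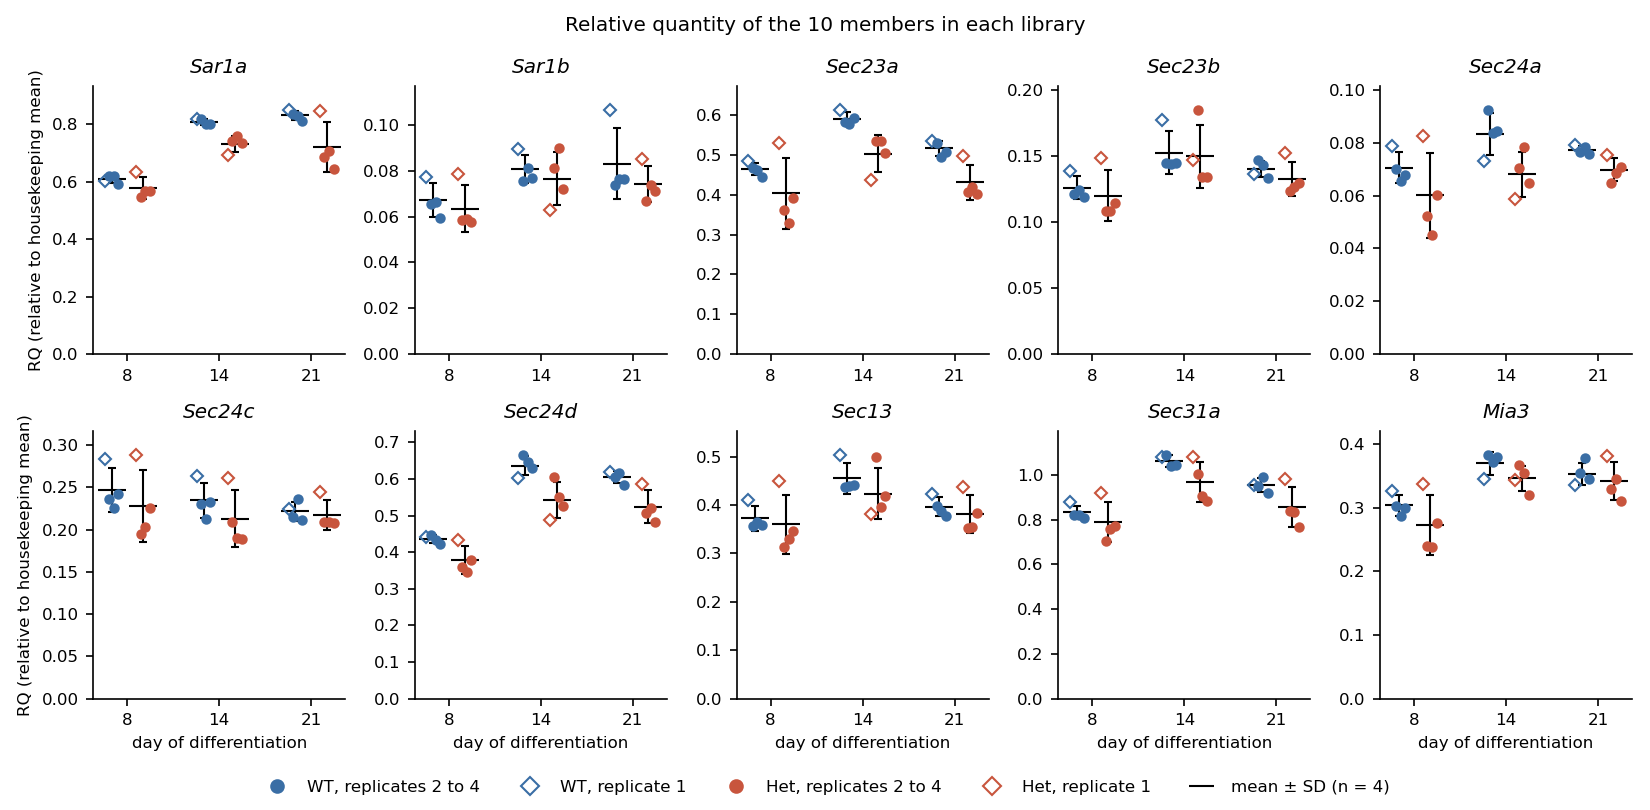
RQ of each member (y axis, from 0) by day of differentiation (x axis), 1 symbol per library, WT in blue and Het in red, with open diamonds for replicate 1 and bars for the mean ± SD of 4 libraries. Sec24d and Sar1a separate day 14 from day 8 completely, whereas these days overlap for all other members, Sec24c among them. Replicate 1 of Het at day 8 lies above the other 3 Het libraries for all members.

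The GTPase *Sar1a* rose in every pair. In WT its RQ was 0.602, 0.619, 0.621 and 0.593 at day 8, 0.818, 0.817, 0.7996 and 0.8 at day 14, and 0.848, 0.837, 0.8291 and 0.812 at day 21. In Het it was 0.634, 0.545, 0.566 and 0.566 at day 8, 0.694, 0.742, 0.758 and 0.736 at day 14, and 0.845, 0.687, 0.706 and 0.646 at day 21. The groups of days 8 and 14 did not overlap, and the log2 change was 0.38 ± 0.05 (adjusted p = 1.36e-06). With the total count as scale it was 0.10 and still called, while the other 6 called members (*Sec23a*, *Sec23b*, *Sec13*, *Sec31a*, *Mia3* and *Sar1b*) were not. *Sar1b*, the paralog known from fat export by the gut, gave 0.27 ± 0.09 (adjusted p = 0.0181).

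The inner coat gene *Sec23a* gave 0.33 ± 0.08 (adjusted p = 0.000971) and its paralog *Sec23b* 0.30 ± 0.08 (adjusted p = 0.00302). Of the outer cage genes, *Sec31a* rose by 0.32 ± 0.06 (adjusted p = 9.61e-05) and *Sec13* by 0.26 ± 0.07 (adjusted p = 0.0056). *Mia3*, the procollagen receptor, rose by 0.31 ± 0.06 (adjusted p = 0.000372), from a median RQ of 0.293 over 8 libraries at day 8 to 0.360 at day 14. Without replicate 2 the count of members called higher fell from 8 to 5 (*Mia3*, *Sar1a*, *Sec23a*, *Sec24d* and *Sec31a*), a fit whose share of all genes is not given here. Without replicate 1 it was 9, beside 9008 of all 19656 genes.

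From day 14 to day 21 no member was called by edgeR on the housekeeping scale, where 12.1% of all genes were called higher and 5.89% lower. Unadjusted p was under 0.05 for 3 members, all lower, and DESeq2's Wald test called 2 lower, beside 1426 of the 36678 genes it tested. *Sec31a* gave −0.17 ± 0.06 (adjusted p = 0.0534), *Sec23a* −0.21 ± 0.08 (adjusted p = 0.0608) and *Sec13* −0.17 ± 0.07 (adjusted p = 0.114). *Sec31a* was lower at day 21 in 8 of 8 same-numbered pairs, a count that was not taken over all genes. Of the macrophage and osteoclast markers 8 of 10 were called higher in this comparison, and of the OB markers 1 of 7, and their part was not tested. With the replicate block these 3 genes were called lower, with adjusted p of 0.0167 for *Sec31a*, 0.0349 for *Sec23a* and 0.0486 for *Sec13*. This stood beside 7.92% of all genes called lower under the block. Without replicate 1, 4 members were called lower (the same 3 and *Sec24d*), beside 12.3% of all genes. With TMM or the total count 5 were called lower, these 4 and *Sec23b*. Over all genes 2477 were called higher and 1203 lower, against 2055 and 2492 with TMM, 2266 and 2130 with DESeq2's size factors, and 2169 and 2133 with the total count. For the GTPases the values were near 0, with 0.01 ± 0.05 for *Sar1a* (95% interval −0.09 to 0.10) and −0.01 ± 0.09 for *Sar1b* (95% interval −0.18 to 0.17).

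In Het OBs at days 14 and 21 together, transcripts of part of the coat were lower than in WT. All 10 log2 fold changes were below 0, from −0.25 to −0.05 with a median of −0.13, beside a median of −0.05 for all genes, of which 59.3% were below 0. The test called 4 members lower (*Sec23a*, *Sec24d*, *Sec24a* and *Sar1a*) and none higher, where 8.88% of the 19839 genes tested were called lower and 7.26% higher. None of the 4 reached the 20% change used as a bar in the study. This contrast was fitted on its 16 libraries. In the fit of all 24 libraries, used for the other contrasts, 3 members were called, and *Sec24a* had an adjusted p of 0.103. *Sar1a* lost its call without the filter on low counts (adjusted p = 0.0902) and without *Actg1* in the scale (adjusted p = 0.0517). At no member were all 8 Het libraries below all 8 WT libraries, beside 0.524% of all genes. Het was lower in 8 of 8 same-numbered pairs for the 4 called members. Such pairs were not counted over all genes, and the pairing rests mostly on replicate 1, so this count adds no separate support. In the same comparison 4 of the 7 OB markers were called lower and 6 of the 10 macrophage and osteoclast markers higher, and their part in these values was not tested.

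*Sec23a*, whose loss in people causes late-closing sutures of the skull, showed the largest difference. Its RQ in WT was 0.613, 0.584, 0.578 and 0.595 at day 14 and 0.535, 0.532, 0.495 and 0.509 at day 21. In Het it was 0.438, 0.536, 0.537 and 0.506 at day 14 and 0.498, 0.408, 0.420 and 0.402 at day 21. The genotypes did not overlap at day 14, and at day 21 only Het replicate 1 reached into the WT range. How many of all genes separate at a single day was not counted, here or for the members below. The log2 fold change was −0.25 ± 0.06 (adjusted p = 0.00869), a ratio of 0.843. Exons of *Sec23a* overlap those of *Gm17529* on the other strand, and no source used here states that counting used strand, so reads of these genes cannot be told apart.

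For *Sec24d* the values by library are given above: Het replicate 2 exceeded WT replicate 1 at day 14, and Het replicate 1 exceeded WT replicate 4 at day 21. Its log2 fold change was −0.22 ± 0.05 (adjusted p = 0.0117), a ratio of 0.859. *Sar1a* did not overlap between genotypes at day 14, and at day 21 the Het libraries lay below all WT libraries except replicate 1. It gave −0.17 ± 0.05 (adjusted p = 0.0297), a ratio of 0.886.

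The rarest member, *Sec24a*, had RQ values in WT of 0.0729, 0.0922, 0.0838 and 0.0843 at day 14 and 0.0790, 0.0764, 0.0782 and 0.0758 at day 21. In Het they were 0.0586, 0.0703, 0.0784 and 0.0647 at day 14 and 0.0753, 0.0646, 0.0685 and 0.0707 at day 21. The genotypes overlapped at day 14 and were just apart at day 21. The log2 fold change was −0.22 ± 0.06 (adjusted p = 0.0241), a ratio of 0.858.

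The remaining members were not called. *Sec31a*, the outer cage scaffold, had a median RQ over both days of 1.02 in WT and 0.894 in Het and gave −0.15 ± 0.06 (adjusted p = 0.0841), or −0.15 with an adjusted p of 0.043 under the replicate block. *Sar1b* gave −0.12 ± 0.09, *Sec24c* −0.08 ± 0.07, *Sec13* −0.08 ± 0.06, *Mia3* −0.07 ± 0.05 and *Sec23b* −0.05 ± 0.07, with adjusted p from 0.348 (*Mia3*) to 0.688 (*Sec23b*).

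Leaving out replicate 1 raised the number of members called lower from 4 to 7 (*Mia3*, *Sec24c* and *Sec31a* besides), where 22.2% of all genes were then called lower. Leaving out replicate 2, replicate 3 or replicate 4 in turn left 0 members called. The share of all genes called in these fits is not given here, so this loss cannot be read as particular to the members. With each of the 16 libraries left out alone, *Sec23a* and *Sec24d* were called in 16 of 16 fits, *Sec24a* in 13, *Sar1a* in 10 and *Sec31a* in 2, and without WT replicate 2 of day 14 the count of called members fell from 4 to 2. Under TMM and DESeq2's size factors *Sec23a*, *Sec24d* and *Sar1a* were called, and under the total count *Sec23a* (−0.16) and *Sec24d* (−0.13). With the total count *Mia3*, *Sec13*, *Sec23b* and *Sec24c* turned to 0.01 to 0.04, none of them called. Among all genes, 1440 were called higher and 1762 lower on the housekeeping scale, against 2463 and 1485 with TMM, 2690 and 1380 with DESeq2's size factors, and 3289 and 1008 with the total count.

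**Figure D2:**
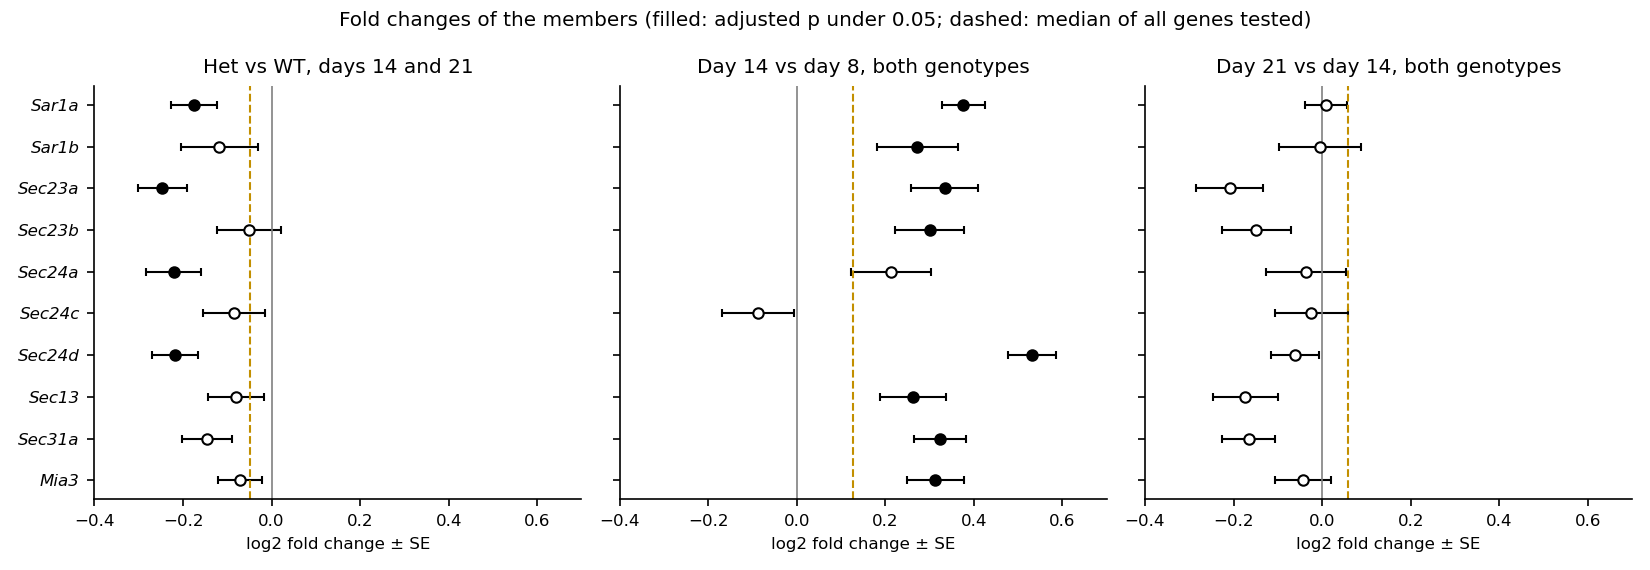
Log2 fold change ± SE (x axis) of each member for 3 comparisons, filled where the adjusted p was under 0.05, with a dashed line at the median of all genes tested. All 10 members lie below 0 in Het against WT, 9 of 10 lie above 0 at day 14 against day 8 with Sec24c the exception (with the total count as scale Sec13 and Sar1b also turn below 0, as do 4 members above 0 in Het against WT), and none is filled at day 21 against day 14.

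The genotypes were also compared day by day, with 4 libraries each. No member was called at day 8, day 14 or day 21 by edgeR, where 0.631%, 3.45% and 0.91% of all genes were called. Unadjusted p was under 0.05 for 1, 4 and 3 members, all lower in Het, and DESeq2's Wald test called 0, 1 (*Sec24d*) and 1 (*Sar1a*). Of the 36678 genes it tested, DESeq2 called 218, 866 and 349 lower. Higher genes made up 50.4%, 56.1% and 71.5% of the calls over all genes, against 68.1%, 73.5% and 62.3% with TMM and 64.4%, 87.6% and 82.8% with the total count. At day 8 the Het libraries split: for *Sec23a*, WT held 0.485, 0.468, 0.464 and 0.446, and Het held 0.532 in replicate 1 against 0.363, 0.329 and 0.393 in replicates 2 to 4. The Het library of replicate 1 was the highest of its group for all 10 members, and for 9 of them it was above its WT partner, *Sec24d* being the exception.

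Without replicate 1, 4 members were called lower at day 8 (*Mia3*, *Sec23a*, *Sec24a* and *Sec24d*), where 13.2% of all genes were. At day 14 they were *Sec24a*, *Sec24c*, *Sec24d* and *Sec31a*, beside 14.8% of all genes, and at day 21 *Sar1a*, *Sec23a*, *Sec24d* and *Sec31a*, beside 13.6%. *Sec24d* was called at each of these 3 days, with log2 fold changes of −0.27, −0.21 and −0.26. The genotype effect at days 14 and 21 was also set against that at day 8 in an interaction term. No member was called by edgeR or DESeq2, no unadjusted p was under 0.05, and 0.171% of all genes were called. The differences ran from −0.10 ± 0.08 for *Sar1a* to 0.09 ± 0.11 for *Mia3*.

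Shares within a family do not depend on the library scale and were compared in counts per kb with two-sided exact permutation tests, 12 in all. *Sec24d* made up 59.6% ± 2.15 of the *Sec24a*, *Sec24c* and *Sec24d* signal at day 8 and 68.5% ± 3.00 at day 14 (SD, n = 8). The lowest day 14 library and the highest day 8 library both stood at 62.1%. For the rise of 8.94 percentage points the exact permutation test gave p = 0.000155, the lowest value that 8 against 8 libraries allow, and an adjusted p of 0.00186. At day 21 the share was 68.0% ± 1.43, which differed from day 14 by −0.50 points (exact permutation p = 0.703, n = 8). Between genotypes at days 14 and 21 it was 67.4% ± 2.74 in Het and 69.2% ± 1.41 in WT, a difference of −1.72 points (exact permutation p = 0.133, adjusted p = 0.339, n = 8). Inside the replicate block the exact permutation p was 0.0469 and the adjusted p 0.188. At day 21 the Het libraries, at 65.8% to 67.4%, lay below the WT libraries, at 68.5% to 69.8%, and at day 14 the genotypes overlapped. Neither day was tested alone. *Sec24b*, which is not among the members, was left out of this share.

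The share of *Sec23a* in *Sec23a* and *Sec23b* was 83.1% ± 0.98 in WT and 81.1% ± 1.66 in Het at days 14 and 21 (SD, n = 8). Het libraries ran from 79.1% to 83.9% and WT libraries from 81.8% to 84.2%, so the pooled groups overlapped. At day 21 alone, which was not tested, the highest Het library (81.2%) was below the lowest WT library (81.8%). The pooled difference of −2.02 points had an exact permutation p of 0.0118 and an adjusted p of 0.0709, or 0.0469 with exact permutation inside the replicate block. At day 8 it was −1.49 points (exact permutation p = 0.0571, n = 4 against 4, where 0.0286 is the smallest possible). The share of *Sar1a* in *Sar1a* and *Sar1b* was 75.3% ± 1.74 at day 8 and 76.7% ± 1.68 at day 14 (exact permutation p = 0.141, n = 8) and 76.4% ± 1.55 in Het against 77.1% ± 2.09 in WT at days 14 and 21 (exact permutation p = 0.456, n = 8).

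**Figure D3:**
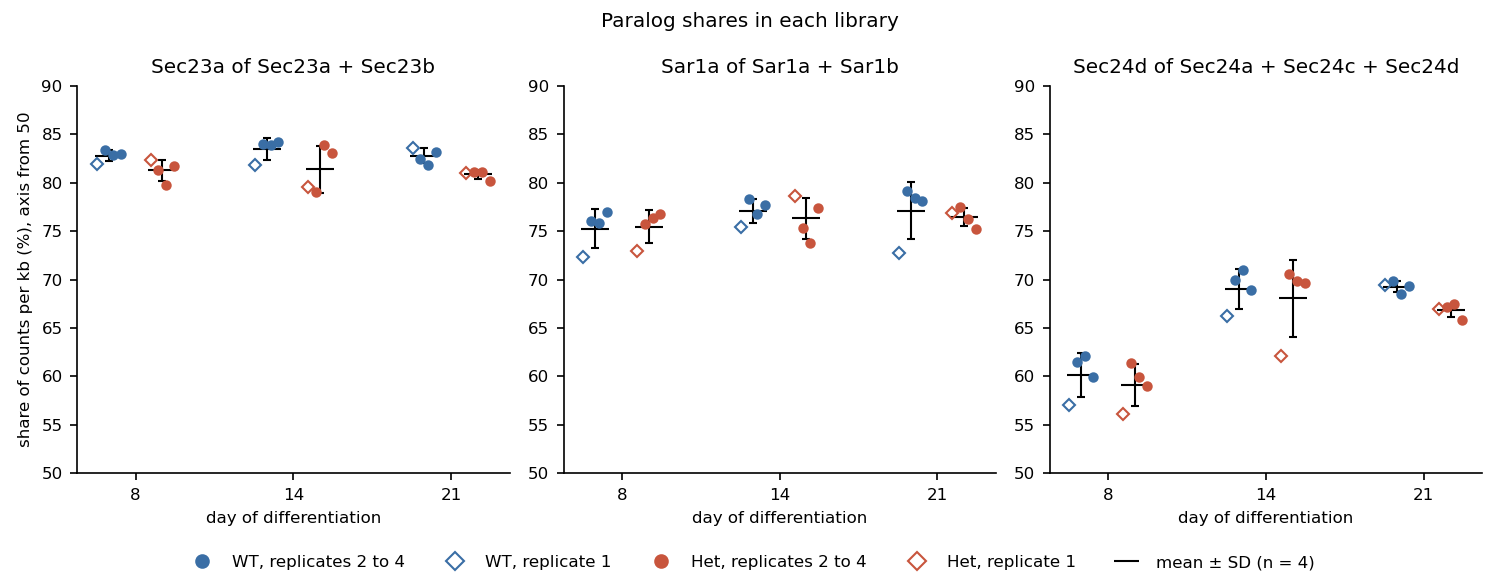
Share of counts per kb (%, y axis from 50) of Sec23a, Sar1a and Sec24d among members of their families, by day (x axis). Each symbol is 1 library and bars give the mean ± SD of 4 libraries. The mean Sec24d share steps from 60.12% at day 8 to 69.05% at day 14 in WT and from 59.1% to 68.05% in Het. The Sec23a share has a lower mean in Het at all 3 days, with libraries that overlap at days 8 and 14 and not at day 21.

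The wider pathway was read from 4 lists of 55 other genes in all. At day 14 against day 8, 37 of them were higher and 1 lower, with a median of 0.24. Of all genes 34.2% were called higher and 13.4% lower, with a median of 0.13. The count among the 55 followed the scale, with 24 higher and 9 lower under TMM, 28 and 6 under DESeq2's size factors, and 12 and 16 under the total count (median −0.03). With the replicate block it was 39 and 1, with *Rab1a* and *Pef1* added, beside 7754 and 3248 of all 20434 genes. Among 13 other COPII and exit-site genes 6 rose, led by the scaffold *Sec16b* (0.85 ± 0.05), *Mia2* (0.63 ± 0.08), which like *Mia3* encodes an exit-site cargo receptor, and *Preb* (0.53 ± 0.06), the exchange factor that loads SAR1 with GTP. Of 18 cargo receptors 12 rose, led by *Tmed3* (0.53 ± 0.07), *Ergic3* (0.38 ± 0.06) and *Tmed10* (0.37 ± 0.06), and *Cnih4* fell (−0.28 ± 0.10). Of 10 tethers and SNAREs 8 rose, led by *Bet1* (0.69 ± 0.12), *Sec22b* (0.60 ± 0.06) and *Uso1* (0.45 ± 0.07). Of 14 genes of the COPI coat, which returns proteins to the ER, and of retrieval 11 rose, led by *Kdelr3* (0.73 ± 0.07), *Copz2* (0.55 ± 0.06) and *Cope* (0.38 ± 0.07). Of the genes named here, *Ergic3* and *Cope* alone lost their call under the total count.

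In Het against WT at days 14 and 21, 8.88% of all genes were called lower and 7.26% higher, with a median of −0.05. Of the 55 list genes, 9 were lower and 0 higher by edgeR, with a median of −0.14 (26 lower and 0 higher at an unadjusted p under 0.05). They were *Preb* (−0.25 ± 0.05), *Sec23ip* (−0.20 ± 0.04) and *Sec16b* (−0.17 ± 0.04) of the exit sites, and the cargo receptors *Lman1* (−0.21 ± 0.07) and *Surf4* (−0.19 ± 0.06). The tethering genes *Sec22b* (−0.26 ± 0.06) and *Golga2* (−0.20 ± 0.05) and the retrieval genes *Copg2* (−0.47 ± 0.13) and *Kdelr2* (−0.21 ± 0.04) completed them. The list medians were −0.16, −0.03, −0.18 and −0.16 in this order. Under TMM and DESeq2's size factors 7 were lower and 0 higher, *Lman1* and *Golga2* being lost, and under the total count 4 were lower (*Preb*, *Sec23ip*, *Sec22b* and *Copg2*) and 3 higher. Without replicate 1, 27 were lower and 3 higher, where 22.2% of all genes were called lower. With the replicate block 14 were lower, beside 2824 of all 19839 genes. *Kdelr2* was also lower at day 21 alone (−0.27 ± 0.06). At day 21 against day 14, *Sec31b* rose (0.53 ± 0.11), and *Copg2* (−0.57 ± 0.14), *Kdelr2* (−0.28 ± 0.04) and *Tmed3* (−0.19 ± 0.07) fell, which they did under every scale. The number called lower rose from 3 to 24 with TMM, 17 with DESeq2's size factors, 18 with the total count, 23 without replicate 1 and 9 with the replicate block. Of all genes 5.89% were called lower on the housekeeping scale, 12.3% without replicate 1 and 7.92% with the block. At day 8, at day 14 and in the interaction 0 of the 55 were called by edgeR, with 6, 13 and 1 at an unadjusted p under 0.05.

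**Figure D4:**
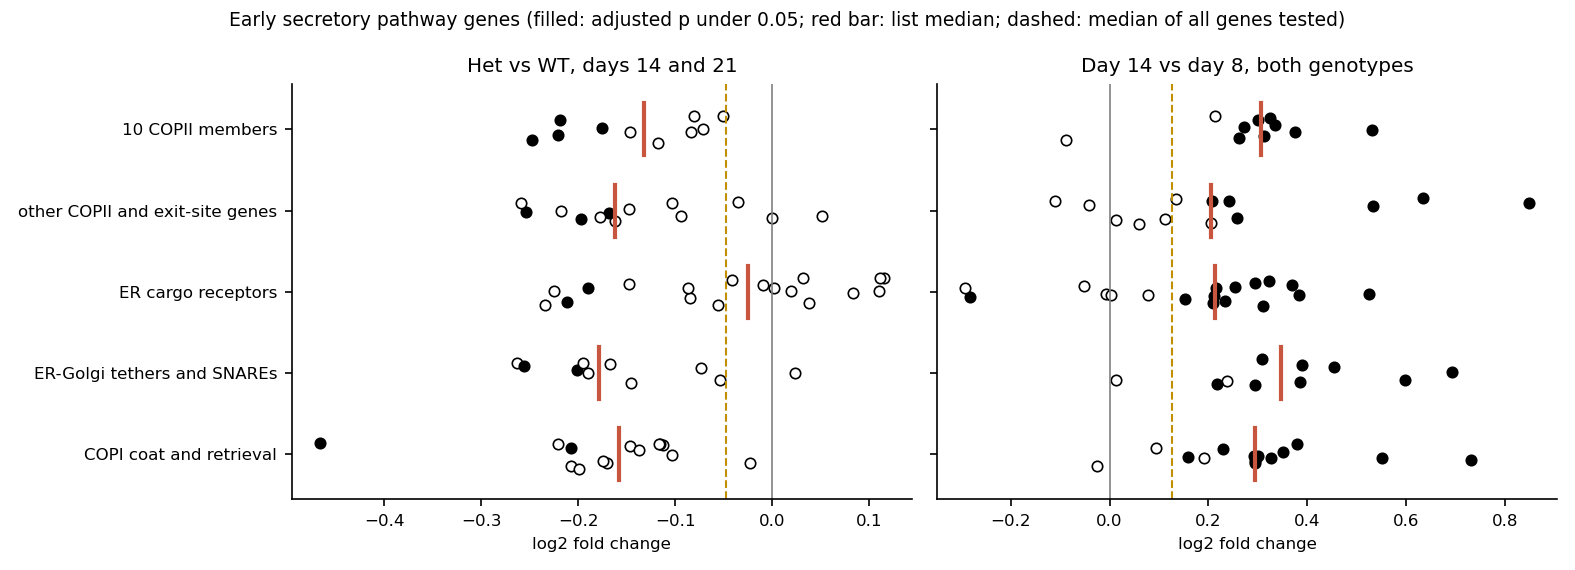
Log2 fold change (x axis) of each gene in the 10 members and 4 lists of the early secretory pathway, filled where the adjusted p was under 0.05, with a red bar at each list median and a dashed line at the median of all genes tested. At day 14 against day 8 the filled genes lie above 0 with 1 exception (Cnih4), and in Het against WT all filled genes lie below 0, both on the housekeeping scale (with the total count 12 of the 55 list genes were higher and 16 lower at day 14, and 3 were higher in Het).

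Transcripts of type I procollagen, the main cargo, had larger log2 changes than any member in both comparisons. *Col1a1* rose by 1.84 ± 0.19 and *Col1a2* by 1.88 ± 0.18 from day 8 to day 14 (adjusted p = 5.48e-08 and 2.63e-08), and *Serpinh1*, the collagen chaperone HSP47, by 0.68 ± 0.07. In Het at days 14 and 21 *Col1a1* gave −0.39 ± 0.12 (adjusted p = 0.0442), *Col1a2* −0.41 ± 0.12 (adjusted p = 0.0268) and *Serpinh1* −0.06 ± 0.07 (adjusted p = 0.582). *Col1a1* was not called under the other 3 scales, while *Col1a2* was.

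Among transcription factors of secretory genes, *Creb3l1*, an ER-bound factor needed for collagen output in bone, rose by 1.82 ± 0.09 from day 8 to day 14 (adjusted p = 1.4e-12). *Xbp1* (0.73 ± 0.06) and *Atf6* (0.53 ± 0.06), factors of the unfolded protein response, rose with it, and *Creb3l2*, which is known to drive *Sec23a* in cartilage, fell (−0.39 ± 0.11, adjusted p = 0.00734). In Het at days 14 and 21 *Creb3l1* (0.28 ± 0.08, adjusted p = 0.0238) and *Atf6* (0.21 ± 0.06, adjusted p = 0.031) were higher. *Creb3l2* was lower (−0.24 ± 0.08, adjusted p = 0.0397) and *Xbp1* was not called (−0.10 ± 0.05, adjusted p = 0.199). *Creb3l2* lost its call under the other 3 scales, and *Creb3l1* and *Atf6* kept theirs. The paper reported *Atf6* as unchanged in cultured Het OBs at these days, by a rule that asked for a minimum size of change besides the p-value. The paper described *Creb3l1* as apparently increased, but not by enough to pass its bar on the size of a change. That bar was not applied to the calls of these factors, so the call of *Atf6* cannot be set against the paper's report. At days 14 and 21 together the higher *Creb3l1* and *Atf6* stood beside lower coat genes in the same libraries. This did not hold at day 8, where all 4 factors were below 0 in Het (median −0.22, from −0.39 to −0.16). None of the 4 was called at day 8, day 14 or day 21 alone, or in the interaction.

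The pattern of each member over all 24 libraries was compared with 14890 genes of a mean of at least 50 counts by Pearson r of log2(scaled count + 0.5). The libraries share days, genotypes and scale, so the values describe likeness only. *Sec24d* was most like *Prrc1* (0.99), *Sec22b* (0.98) and *Arfgap3* (0.97), and *Sar1a* was most like *Vkorc1* (0.98), the overlapping *Gm21974* (0.98) and *Sec22b* (0.98). *Sec31a* was most like *Arfgap1* (0.97), *Srpr* (0.94) and *Copb2* (0.94), and *Sec24c* like *Ap2b1* (0.97), *Prpf8* (0.94) and *Ubap2l* (0.93). *Sec13* and *Sec23b* were each other's closest gene (0.93), followed by *Zfp330* (0.91) and *Colgalt1* (0.91) for *Sec13* and by *Blzf1* (0.93) and *Nme1* (0.91) for *Sec23b*.

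*Sec23a* was closest to its antisense neighbour *Gm17529* (0.95), then *Gtf2e1* (0.93) and *Zfp9* (0.93). *Mia3* was closest to *Fndc3b* (0.94), *Tiam2* (0.94) and *Atg13* (0.94). *Sec24a* was closest to *Lmbrd2* (0.92), *Cdk17* (0.92) and *Dgkh* (0.92), and *Sar1b* to *Spcs1* (0.94), *Dars* (0.94) and *Rsrc2* (0.94). Of the 30 nearest genes named here, *Sec22b* is the 1 that appeared for a pair of members, *Sec24d* and *Sar1a*, the members that separated day 14 from day 8.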

How the data were processed

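Bulk RNASeq of 24 primary OB libraries (WT and Het, days 8, 14 and 21, 4 each) was analysed. Raw read counts for each gene were deposited by the authors, together with merged exon lengths. The submitters' processing notes name cutadapt 2.5, STAR 2.73a and Subread featureCounts 1.6.4 with build mm10. Strand handling and reads matching several genes are not given in the sources used here. Counts were divided by the geometric mean of 4 housekeeping genes, as in the study, and tested with edgeR 4.0.16 in R 4.3.3 (filterByExpr, glmQLFit, glmQLFTest, Benjamini-Hochberg, threshold 0.05), which was tested on simulated data. Het against WT at days 14 and 21 was fitted on 16 libraries with day as covariate, and all other contrasts on 24 libraries with 6 group means. DESeq2 1.42.0, TMM, size factors, total count and each replicate left out were alternatives, extended to the wider lists after the data were seen. Coordinates and overlaps come from GENCODE M21 (GRCm38), where *Mia3* has another version, so lengths were taken from the files.

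All members were named, and from each wider list up to 3 called genes per direction and comparison with the largest change. The members and lists were chosen with earlier results of these data known. Same-numbered WT and Het libraries deviated together from their group means (12 correlations, 0.222 to 0.768, while the median over 36 differently numbered pairs was −0.074). Same-numbered libraries were taken as paired only in the replicate block and in the counts of pairs, and the main tests did not use the pairing. Among replicates 2 to 4 alone the median was 0.061, so the pairing rests mostly on replicate 1. Blocked values stand beside results whose call they change. Without molecular identifiers PCR duplicates are part of the counts. In all 36 pairs of replicates the difference exceeded sampling noise.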

Additional observations from a re-analysis of the deposited data

Results flagged for a closer look

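Among 78 groups of 4 libraries (10 members and 3 shares in 6 groups each), 11 held a library far from the other 3, with a gap to the nearest of them above Dixon's 95% critical value. Chance would flag about 1 in 20 independent groups. These groups share the same libraries and the members correlate with each other, so the 11 cannot be set against that rate. Replicate 1 was the library in 10 of the 11.

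*Sec13* stood at an RQ of 0.41 in WT day 8 replicate 1 (others 0.357 to 0.364) and 0.504 in WT day 14 replicate 1 (others 0.436 to 0.442). *Sec23b* stood at 0.177 in WT day 14 replicate 1 (others 0.144 to 0.145) and 0.149 in Het day 8 replicate 1 (others 0.108 to 0.114). *Sec24c* stood at 0.244 in Het day 21 replicate 1 (others 0.207 to 0.209). *Sar1b* stood at 0.106 in WT day 21 replicate 1 (others 0.0739 to 0.0764) and 0.0788 in Het day 8 replicate 1 (others 0.0576 to 0.0588). These 7 were the highest of their groups.

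Shares were lowest in the other 4 cases. The *Sec23a* share was 81.8% in WT day 14 replicate 1 (others 84.0% to 84.2%) and 80.2% in Het day 21 replicate 4 (others 81.0% to 81.2%). The *Sar1a* share was 72.8% in WT day 21 replicate 1 (others 78.1% to 79.2%), and the *Sec24d* share was 62.1% in Het day 14 replicate 1 (others 69.7% to 70.6%). Replicate 1 also had the fewest counts, and the part of depth in these values was not tested.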

How the results depend on the processing

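Fold changes of the members depended on the scale and on the replicate set. At days 14 and 21 the count called in Het against WT was 4, with 2 under the total count, 0 with a 20% bar and 0 to 7 with single replicates left out. It was 0 at each single day, with 0 to 4 without single replicates at days 8, 14 and 21 and 1 by DESeq2's Wald test at days 14 and 21. At day 14 against day 8 it was 8, with 3 under the total count (2 higher, 1 lower) and 5 to 9 without single replicates. At day 21 against day 14 it was 0, with 5 under TMM, 4 under DESeq2's size factors, 5 under the total count, 3 without *Mrfap1*, 3 with the replicate block, 2 by DESeq2's Wald test and 0 to 4 without single replicates. The signs of *Sec13* (−0.012) and *Sar1b* (−0.003) turned at day 14 against day 8 under the total count, and that of *Sar1b* in replicate 1 alone (−0.055). The genotype difference in the *Sec23a* share at days 14 and 21 was −2.02 points with the replicate block (adjusted p = 0.0469, exact permutation) and −2.57 to −1.64 without single replicates, with an adjusted p of 0.039 without replicate 3. Without single replicates the *Sec23a* share changed by −0.33 to 1.03 points from day 8 to day 14, and from day 14 to day 21 the *Sar1a* share by −0.53 to 0.89 and the *Sec24d* share by −2.02 to 0.16, none past the threshold. Of 1260 alternative values of single members 1050 kept direction and side of the threshold. The cause of these changes was not tested, and the share of all genes called without replicate 2, 3 or 4 is not given here. Among the members the replicate block changed no call other than those given. No result could be tied to an experiment, since replicates are not assigned to one.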

Other observations

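The load of type I procollagen transcript on the coat was described with a ratio chosen after the values were seen and not tested: *Col1a1* and *Col1a2* over the sum of the 10 members, all in RQ per kb. In WT it was 11.4 ± 4.45 at day 8, 34.5 ± 9.84 at day 14 and 41.1 ± 3.78 at day 21 (SD, n = 4). In Het it was 10.49 ± 3.95, 27.6 ± 2.62 and 36.6 ± 4.55. The libraries of the genotypes overlapped at each day, and at day 8 they ran from 4.96 to 14.6 in WT and from 5.03 to 13.6 in Het. At days 8, 14 and 21 the coat sum itself was 0.712 ± 0.0284, 0.902 ± 0.0209 and 0.851 ± 0.0268 for WT. For Het it was 0.660 ± 0.0900, 0.815 ± 0.0431 and 0.762 ± 0.0759.

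The 10 members correlated with each other over the 24 libraries to unequal degrees, with a Pearson r from −0.03 to 0.96 and a median of 0.75 over 45 pairs of members, given as a description.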
